A study of Rattus norvegicus with 11 samples.

Results

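The genes described here are 4 ligands of the neutrophil receptor Cxcr2 (Cxcl1, Cxcl2, Cxcl3 and Cxcl6), Cxcr2 itself, the 3 colony-stimulating factors Csf3, Csf2 and Csf1, and the homeostatic chemokine Cxcl12. These 9 genes were chosen by symbol, with results of the same samples already known, from the 24481 genes with read counts, and all 9 were found once. Total RNA of the ileum was sequenced as stranded mRNA libraries in 3 groups of male SD rats that were 6 to 8 weeks old. The SAP group (n = 4) had severe acute pancreatitis, induced with 3% sodium taurocholate in the pancreatic duct. The JZL184 group (n = 4) had the same pancreatitis and received JZL184, a selective inhibitor of the enzyme monoacylglycerol lipase, intraperitoneally at 10 mg/kg, 24 h after the surgery and 24 h before the rats were killed. The control group (n = 3) and the SAP group received the vehicle in the study's methods, whereas the labels name a control plasmid for one and oil for the other. The methods form the 3 groups 24 h after the surgery, and do not state whether the control rats received taurocholate.

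CXC chemokines of this family are small secreted proteins that guide neutrophils along a gradient from blood into tissue. Cxcl1, Cxcl2, Cxcl3 and Cxcl6 act through Cxcr2, which neutrophils carry on their surface. Csf3, also named G-CSF, drives the production and release of neutrophils from bone marrow, Csf2 (GM-CSF) acts on neutrophils, macrophages and dendritic cells, and Csf1 (M-CSF) sustains macrophages. Cxcl12 binds Cxcr4 and retains neutrophils in the marrow. In the gut, Il1b, Tnf and cytokines of the Il17 family induce several of these ligands and Csf3 in epithelial and stromal cells, and RNA-binding proteins such as Zc3h12a and Zfp36 shorten the life of their messages.

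The promoters of 6 of the 9 genes were found among the RefSeq sequences (assembly GRCr8), each holding 250 bases before and 50 bases after the start of the gene. They are shown because Cxcl1, Cxcl2 and Cxcl6 lie in 1 cluster on chromosome 14 and had their highest mean level in the same group. The NF-kappaB consensus was present on either strand in 3 of the 6 promoters (Cxcl1, Cxcl2 and Cxcl6) and in 4.18% of all 33469 promoters of the same length. The stretches below hold the match and 30 bases on each side, 5′ to 3′ on the strand of the gene, with the 11 bases of the overlapping matches of both strands in capitals.
Cxcl1 (chr14:17479365-17479435, minus strand): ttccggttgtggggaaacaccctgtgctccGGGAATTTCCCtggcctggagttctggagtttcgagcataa
Cxcl2 (chr14:17467289-17467359, minus strand): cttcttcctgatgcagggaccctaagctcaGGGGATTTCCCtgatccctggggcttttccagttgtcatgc
Cxcl6 (chr14:17596465-17596535, minus strand): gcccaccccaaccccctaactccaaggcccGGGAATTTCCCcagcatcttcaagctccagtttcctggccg
The match began 84 bases before the start of Cxcl1, 74 before that of Cxcl2 and 88 before that of Cxcl6, and its 11 bases were the same in Cxcl1 and Cxcl6. Of 2 other motifs searched on both strands, the AP-1 site TGANTCA (7.33% of all promoters) and TATAAA (14.2%) were found in 0 of the 6 promoters, which says only that these letters were not in these windows. Promoters of Csf2, Cxcr2 and Cxcl12 held none of the 3 motifs. A match describes the sequence and was not tested as a site of binding.

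Between 26341299 and 33847135 reads lay on genes per library. Levels are given as FPKM, a read level scaled to gene length and library size, which the authors deposited with 2 decimals. Control libraries 1 and 2 differed little beyond counting noise, with a chi-square per gene of 2.81 against 77.5 to 563 in every other pair within a group, so they were counted as 1 sample and the control group had n = 2. The SAP libraries fell into pairs. Against control, SAP libraries 1 and 2 alone gave 5859 called genes and libraries 3 and 4 alone gave 74. SAP library 2 had 20 reads on Y-linked genes, against 1222 to 4665 in the other libraries, and 7826 reads on Xist, against at most 56, although the methods describe male rats. The labels name intestinal epithelial cells, but markers of other cells were present in every group. Epithelial markers summed to 22148 to 22849 FPKM per library in control, 8895 to 17057 in SAP and 6354 to 15931 in JZL184, so that both pancreatitis groups lay below control without overlap. The part of this difference in the results against control was not tested. Krt8, Krt20, Fabp2 and Epcam, with control means of 3862, 7157, 7474 and 3464 FPKM, made up most of the sum. In both comparisons with control, 3 of the 8 epithelial markers had positive and 5 negative log2 fold changes. Cdh1 was 105 to 118 FPKM in control, 132 to 166 in SAP and 151 to 194 in JZL184, higher without overlap. Over all libraries, smooth muscle markers summed to 367 to 2115, macrophage markers to 105 to 436, fibroblast markers to 58.8 to 161 and endothelial markers to 24.5 to 37.3. In such bulk tissue, fewer cells of a type and less RNA per cell cannot be told apart.

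Cxcl1, a major neutrophil attractant of rodents, was the most abundant of the 9 genes in the JZL184 group. Its level was 0.63, 0.87 and 4.15 FPKM in control libraries 1 to 3. In the SAP libraries it was 35.4, 5.9, 25.73 and 17.44 FPKM. In the JZL184 libraries it was 217.96, 339.16, 387.94 and 411.25 FPKM. The 3 groups did not overlap, and the lowest SAP value, that of library 2, lay close to control library 3. The mean was 2.45 ± 2.40 FPKM in control (SD, n = 2), 21.1 ± 12.5 in SAP (n = 4) and 339 ± 86.2 in JZL184 (n = 4). By FPKM, Cxcl1 ranked between 234 and 369 among 24205 genes in the JZL184 libraries, between 1891 and 6307 in the SAP libraries and between 6588 and 11183 in the control libraries.

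Cxcl2, a chemokine that macrophages and neutrophils also release, was lower in level than Cxcl1 in every library. It stood at 0.03, 0 and 0.28 FPKM in control, from 1, 0 and 10 reads. The SAP libraries had 12.56, 0.96, 7.08 and 1.4 FPKM, and the JZL184 libraries had 13.62, 23.5, 18.17 and 27.31 FPKM. SAP libraries 1 and 3 were high and libraries 2 and 4 low, and SAP library 1 nearly reached the lowest JZL184 library. Cxcl3, another ligand of the cluster, had 0.82, 0.82 and 1.78 FPKM in control. Its SAP levels were 14.92, 2.89, 12.68 and 3.24 FPKM and its JZL184 levels 24.05, 56.73, 16.94 and 23.59 FPKM. The same pair of SAP libraries was high for Cxcl3, and the JZL184 group lay above the SAP group without overlap. Cxcl6 had 0.1, 0.36 and 0.33 FPKM in control, 4.3, 3.09, 1.23 and 0.61 FPKM in SAP and 7.1, 5.0, 3.29 and 9.02 FPKM in JZL184. For this ligand SAP libraries 1 and 2 were the high ones, and SAP library 1 lay above JZL184 library 3, so that the groups overlapped.

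**Figure D1:**
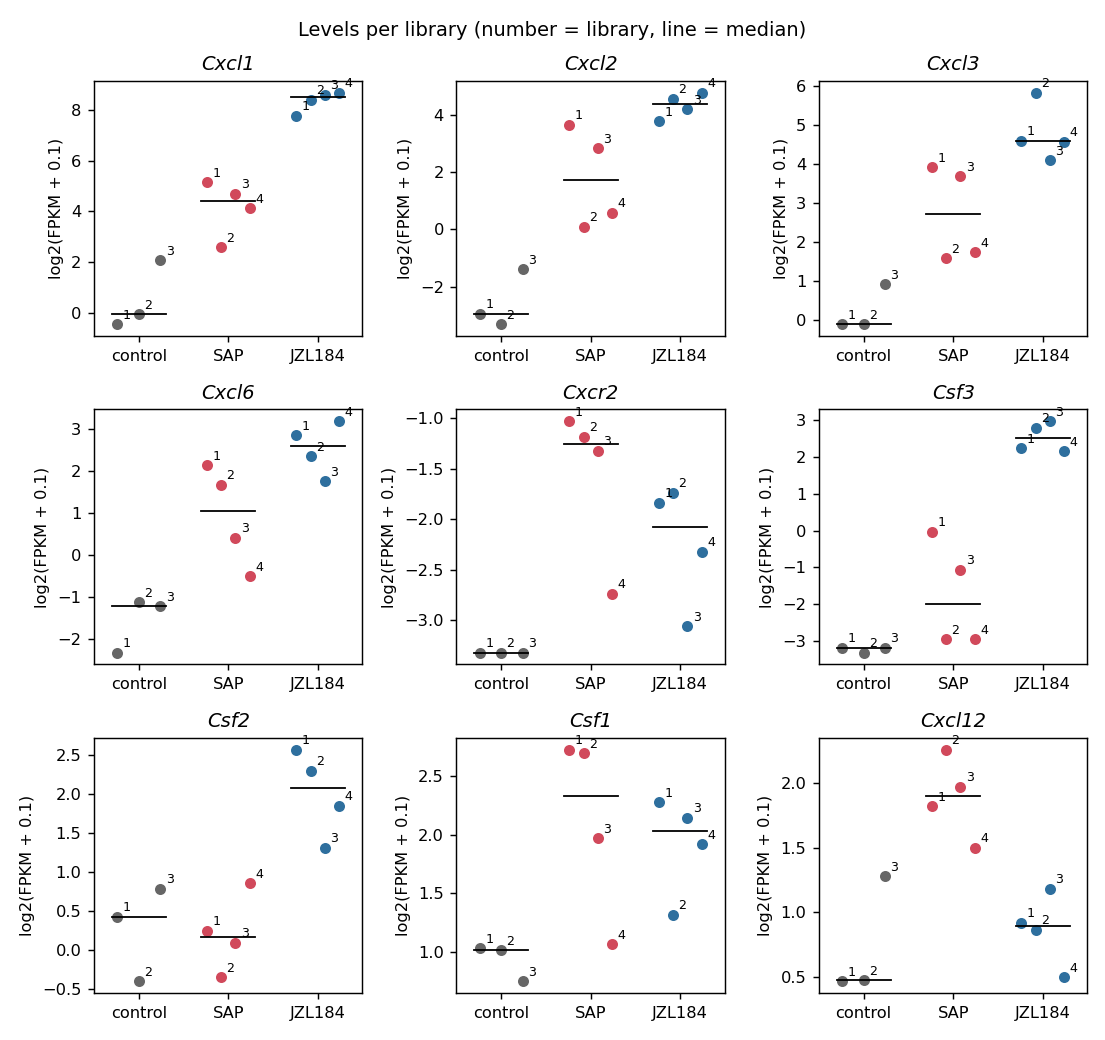
Level of each of the 9 genes in every library, as log2(FPKM + 0.1), by group, with the library number beside each point and the group median as a line. The 4 JZL184 libraries lie above the 4 SAP libraries for Cxcl1, Cxcl2, Cxcl3, Csf3 and Csf2, and below them for Cxcl12.

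Summed over the 4 ligands of Cxcr2, the level was 1.58 to 6.54 FPKM per library in control, 12.8 to 67.2 in SAP and 263 to 471 in JZL184. The composition of this sum differed too. Cxcl1 made up 39.9% to 63.5% of it in the control libraries, 46.0% to 76.9% in the SAP libraries and 79.9% to 91.0% in the JZL184 libraries. The group mean of the sum was 4.18 ± 3.34 FPKM in control (SD, n = 2), 37.4 ± 24.4 in SAP (n = 4) and 396 ± 91.5 in JZL184 (n = 4). The share of Cxcl1 in SAP library 4, at 76.9%, was closest to the JZL184 libraries.

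**Figure D2:**
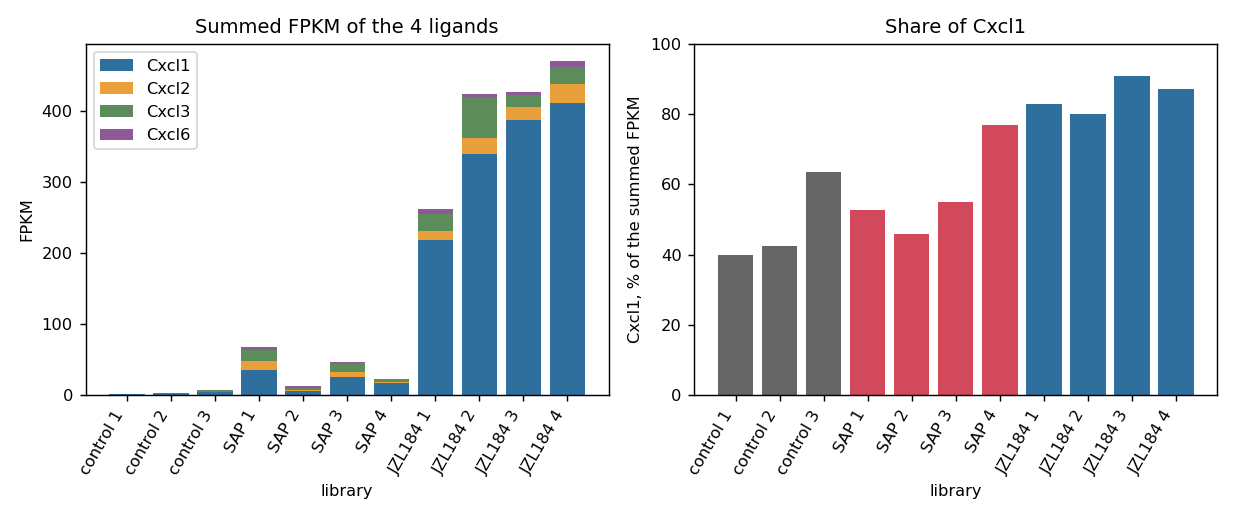
Left, FPKM of Cxcl1, Cxcl2, Cxcl3 and Cxcl6 stacked per library, from 1.58 FPKM in control library 1 to 471 FPKM in JZL184 library 4. Right, the share of Cxcl1 in this sum in percent, which is at least 79.9% in each JZL184 library and at most 76.9% in each of the others.

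Cxcr2, the receptor of these ligands, was scarcely measured. It had 0 reads in all 3 control libraries, 19, 15, 12 and 2 reads in the SAP libraries and 8, 8, 1 and 4 reads in the JZL184 libraries. Its level was 0.39, 0.34, 0.3 and 0.05 FPKM in SAP and 0.18, 0.2, 0.02 and 0.1 FPKM in JZL184. Reads were pooled over each group and scaled to library size, with control set at the 3 reads that a count of 0 allows. Pooled this way, Cxcr2 was at least 11.2-fold higher in SAP and at least 5.36-fold higher in JZL184. These bounds allow for counting error in control only, not for the spread between libraries. SAP library 4 had only 2 reads and JZL184 library 3 only 1. The ratio of JZL184 to SAP was 0.480 (21 against 48 reads, exact 95% interval 0.273 to 0.817). The interval covers counting error only, and the levels of the 4 JZL184 libraries overlapped those of SAP. Cxcr1, the other receptor of this kind, was between 0 and 0.02 FPKM in every library.

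Csf3 showed the steepest course of the colony-stimulating factors. It had 1, 0 and 1 reads in control and 89, 3, 31 and 3 reads in SAP, which corresponds to 0.88, 0.03, 0.38 and 0.03 FPKM. In JZL184 it had 430, 554, 637 and 341 reads, or 4.62, 6.82, 7.76 and 4.35 FPKM. SAP libraries 1 and 3 were again the high ones and libraries 2 and 4 came close to control. Scaled to library size, the ratio of SAP to control was 44.0 (exact 95% interval 11.9 to 367, counting error only) and that of JZL184 to control was 752 (208 to 6212). These ratios rest on 2 control reads.

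Csf2 was 1.25, 0.66 and 1.63 FPKM in control and 1.09, 0.69, 0.97 and 1.72 FPKM in SAP, so that these groups overlapped. It was 5.86, 4.83, 2.39 and 3.52 FPKM in JZL184, above all other libraries. The read counts behind Csf2 were small, from 9 to 89 per library. Csf1 was 1.94, 1.92 and 1.58 FPKM in control, 6.51, 6.37, 3.82 and 1.99 FPKM in SAP and 4.74, 2.39, 4.32 and 3.68 FPKM in JZL184. SAP library 4 was close to the control level for Csf1, and the SAP and JZL184 groups overlapped. The mean of Csf1 was 1.76 ± 0.247 FPKM in control (SD, n = 2), 4.67 ± 2.17 in SAP (n = 4) and 3.78 ± 1.03 in JZL184 (n = 4).

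Cxcl12 went another way from the Cxcr2 ligands. It was 1.28, 1.29 and 2.33 FPKM in control, 3.44, 4.7, 3.83 and 2.73 FPKM in SAP and 1.79, 1.72, 2.17 and 1.31 FPKM in JZL184. Every SAP library was above every control and JZL184 library, and the control and JZL184 groups overlapped. Control library 3 was close to SAP library 4.

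The first comparison, of SAP with control, asks what pancreatitis changed in the ileum. The 4 ligands were higher in SAP by a log2 fold change of 3.00 ± 0.92 for Cxcl1 (SE), 5.19 ± 1.52 for Cxcl2, which had 11 reads in control, 10 of them in library 3, 2.54 ± 0.83 for Cxcl3 and 2.81 ± 0.80 for Cxcl6. Csf1 differed by 1.20 ± 0.48, Cxcl12 by 0.86 ± 0.34 and Csf2 by -0.32 ± 0.56. The median over the 9 genes was 2.81, with Cxcr2 at its fitted value or at its lower bound, and over all 16029 genes tested it was 0.06. Overlap was judged on library-scaled counts of the 10 samples. By that measure 7 of the 9 genes, all except Csf1 and Csf2, did not overlap between the groups and were higher in SAP, and 11.3% of all genes did so. By FPKM, Csf1 did not overlap either. Without control library 3 the log2 fold change of Cxcl1 was 4.57, and the ratio of Cxcl2 rests on 1 control read (384, exact 95% interval 68.8 to 15197, counting error only). A gene was called if the quasi-likelihood test of edgeR gave it a p under 0.05 after Benjamini-Hochberg adjustment and its fold exceeded 2 or lay under 0.5. By this rule 0 of the 9 genes and 0% of all genes were called higher. At an unadjusted p below 0.05 stood 8 of the 9 and 1457 of the 16029 genes. DESeq2 called 5 of them higher (Cxcl1, Cxcl2, Cxcl3, Cxcl6 and Cxcr2), with 0.861% of all genes called higher, and limma-voom called 0 of them, with 0.0624% of all genes called higher. Since the genes were picked from these samples, their counts describe the choice and nothing is read from them.

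The comparison of JZL184 with SAP asks what the inhibitor changed within pancreatitis. Cxcl1 had a log2 fold change of 4.18 ± 0.54 (SE), a fold of 18.1, and Csf3 one of 4.35 ± 0.89, a fold of 20.5. Cxcl2 (2.13 ± 0.72), Cxcl3 (2.09 ± 0.63), Csf2 (2.03 ± 0.47) and Cxcl6 (1.63 ± 0.55) formed a group of smaller differences. Csf1 differed by -0.12 ± 0.34 and Cxcl12 by -0.90 ± 0.25. Cxcr2 did not pass edgeR's filter on low counts in this comparison, nor in that of JZL184 with control. By fold change, Csf3 ranked 12 and Cxcl1 ranked 14 from the top of 15308 genes. The median over the 8 genes that passed was 2.06, and over all genes it was -0.05.

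In this comparison edgeR called 0 of the 8 genes and 0% of all genes higher, with 7 of the 8 and 3267 of all genes at an unadjusted p below 0.05. DESeq2 called 6 of the genes higher, with 3.57% of all genes called higher, and limma-voom called 5 higher (4.46% of all genes) and Cxcl12 lower (4.12%). Of the 8 genes, 5 were higher without overlap (6.23% of all genes) and Cxcl12 was lower without overlap (5.59%). The samples had served for the choice of the genes here as well. Without JZL184 library 1 edgeR called Cxcl1 and Csf3, beside 655 of all 15540 genes. Without SAP library 2 it called Cxcl1, beside 1 of all 15518 genes, which was Cxcl1 itself. With all 3 groups in 1 fit it called Cxcl1 and Csf3, beside 207 of all 16570 genes.

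**Figure D3:**
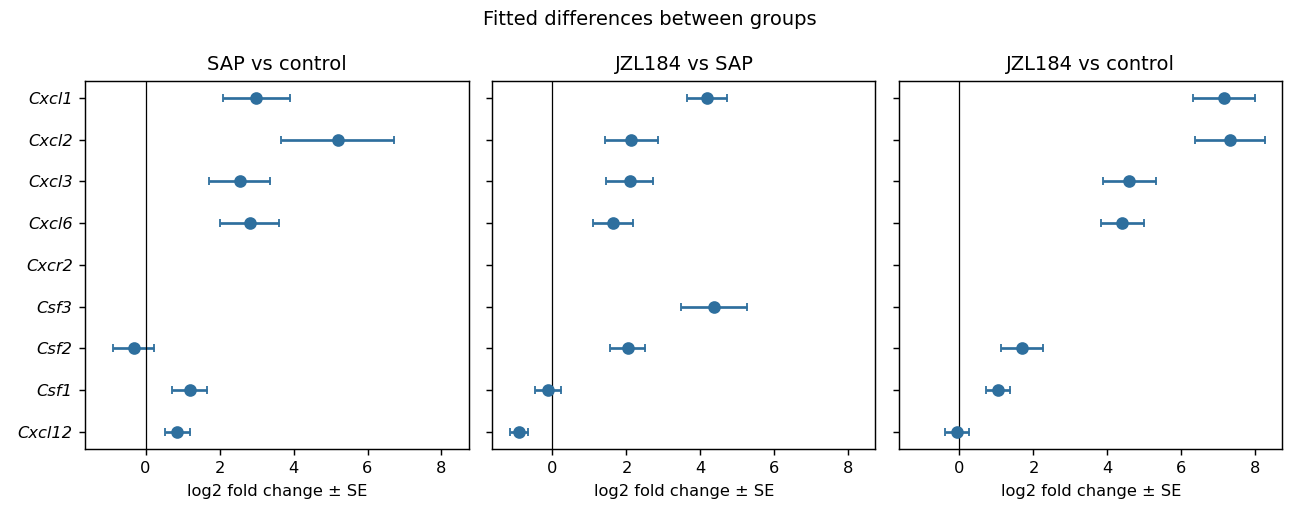
Log2 fold change (point) and SE (bar) of the genes in the 3 comparisons. Cxcl1 stands at 3.00, 4.18 and 7.14, while Cxcl12 stands at 0.86, -0.90 and -0.07. Csf3 and Cxcr2 are left out against control, where they had 2 and 0 reads, and Cxcr2 was not tested in JZL184 against SAP.

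The comparison of JZL184 with control shares the control libraries with the first and the JZL184 libraries with the second. Cxcl1 differed by 7.14 ± 0.83 on the log2 scale (SE), Cxcl2, with its 11 control reads, by 7.32 ± 0.94, Cxcl3 by 4.59 ± 0.73 and Cxcl6 by 4.41 ± 0.57. Csf2 differed by 1.69 ± 0.56, Csf1 by 1.04 ± 0.32 and Cxcl12 by -0.07 ± 0.33. The median over the 8 genes that passed the filter was 4.50, and over all 15916 genes 0.08. Of the 8 genes, 5 were called higher by edgeR (the 4 ligands and Csf3), with 1.02% of all genes called higher. DESeq2 called 6 higher, Csf2 added, with 5.81% of all genes called higher. Of the 8 genes, 7 did not overlap, all except Cxcl12, as did 18.9% of all genes. Without control library 3 edgeR called 0 of the 8 genes and 1 gene in all, and the log2 fold change of Cxcl1 was 8.72. Cxcl2 then had 1 control read, with a ratio of 1394 (exact 95% interval 249.9 to 55068, counting error only). Without JZL184 library 2 edgeR called Csf3 and Cxcl3, beside 25 of all 15836 genes, and the log2 fold change of Cxcl3 was 4.0. Without JZL184 library 4 edgeR called all of the 5 except Cxcl3, beside 78 of all 15827 genes.

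The pairs of SAP libraries changed some genes more than others. In JZL184 against SAP, Cxcl1 differed by 4.32 with SAP libraries 1 and 2 alone and by 4.04 with libraries 3 and 4 alone, and Cxcl3 by 2.09 and 2.07. Cxcl6 differed by 1.0 with the first pair and by 2.81 with the other. Csf1 changed sign, from -0.52 to 0.42. Csf3 differed by 3.95 and 4.93, Csf2 by 2.49 and 1.67, Cxcl2 by 1.90 and 2.39, and Cxcl12 by -0.96 and -0.86. For Cxcl2, Cxcl3 and Csf3, each pair held 1 of the high SAP libraries 1 and 3 and 1 of the low libraries 2 and 4. The pairs therefore do not separate high from low libraries for these genes, and libraries 1 and 3 alone were not fitted. Without SAP library 2, the library with few Y-linked reads, the differences were 3.86 for Cxcl1, 3.97 for Csf3 and -0.81 for Cxcl12. In SAP against control the pairs gave 2.87 and 3.14 for Cxcl1, 5.49 and 4.98 for Cxcl2, 2.53 and 2.55 for Cxcl3, and 3.43 and 1.62 for Cxcl6. Csf1 had 1.57 and 0.64, and Cxcl12 had 0.90 and 0.80.

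**Figure D4:**
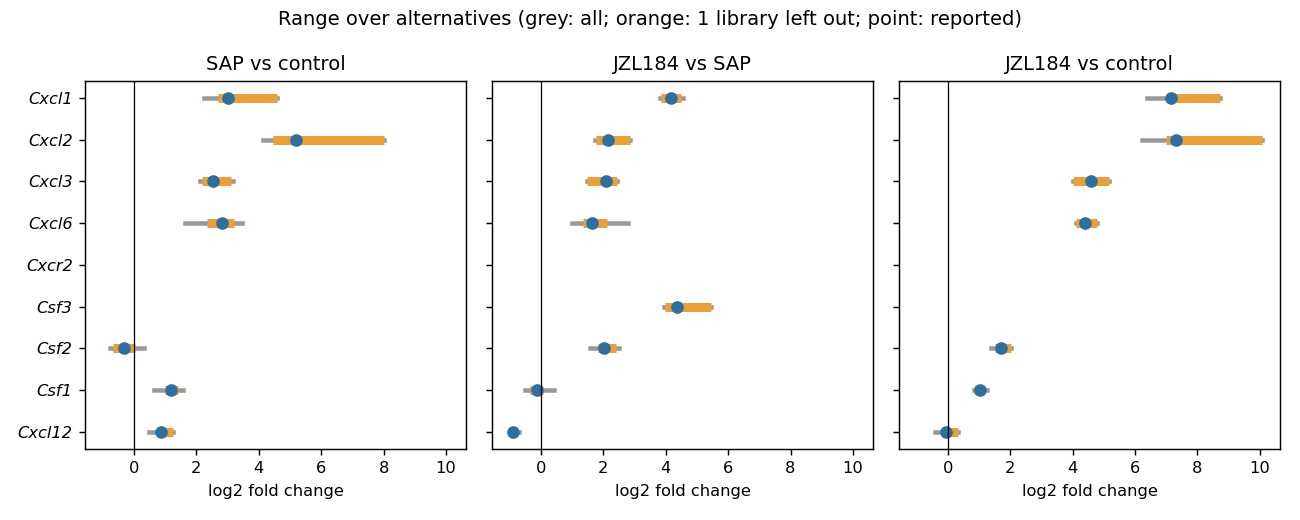
Log2 fold change of the genes as reported (point), its range over all alternatives (grey) and its range when 1 library is left out (orange), in the 3 comparisons. For JZL184 against SAP, Cxcl1 stays between 3.83 and 4.55 and Cxcl12 between -1.0 and -0.71, while Csf1 crosses 0. Csf3 and Cxcr2 are left out where they had 2 or 0 control reads, and the upper ends for Cxcl2 against control rest on 1 control read.

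The cluster on chromosome 14 holds other genes between and beside the ligands, whose order was taken from RefSeq. These neighbours were named for their place, after their values were seen. Mthfd2l, an enzyme of mitochondrial folate metabolism beside Cxcl2, differed by 0.48 ± 0.42 between JZL184 and SAP (SE, adjusted p = 0.501 in edgeR). Rassf6, beyond Cxcl6, differed by 1.15 ± 0.58 (adjusted p = 0.271), with JZL184 library 3 at 16.46 FPKM and the others at 2.64 to 2.85, and by 0.078 without that library. Pf4, a platelet chemokine between Cxcl3 and Cxcl6, differed by -0.11 ± 0.49 (adjusted p = 0.909). By edgeR 0 of the 3 were called in any of the 3 comparisons. Against control, Mthfd2l differed by 1.66 ± 0.44 (adjusted p = 0.0742) and Rassf6 by 1.81 ± 0.79 (adjusted p = 0.191) in JZL184, and DESeq2 called Mthfd2l higher there.

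Receptors of these factors were described from a list of other CXC and decoy receptors and a list of CSF receptors with Il34. In JZL184 against SAP, 0 of the 6 tested receptors of the first list and 0 of the 5 genes of the other were called by edgeR, with 3 and 1 at an unadjusted p below 0.05. At that p stood 3267 of all 15308 genes. The means of Cxcr4, the receptor of Cxcl12, were 4.92 ± 1.44 FPKM in control (SD, n = 2), 4.35 ± 2.67 in SAP and 10.9 ± 2.17 in JZL184 (n = 4 each). Ackr3, a scavenger of Cxcl12, had 3.52 ± 0.63, 4.66 ± 0.76 and 7.2 ± 1.24 FPKM. Ackr1, which binds many inflammatory chemokines on venules, had 0.31 ± 0.03, 0.60 ± 0.22 and 1.14 ± 0.62 FPKM. Log2 fold changes between JZL184 and SAP were 1.43 ± 0.49 for Cxcr4 (SE, edgeR adjusted p = 0.160), 0.77 ± 0.27 for Ackr3 (adjusted p = 0.164) and 1.07 ± 0.51 for Ackr1 (adjusted p = 0.257). Cxcr6, a receptor of T cells, had the smallest p of its list, with -1.91 ± 0.52 (adjusted p = 0.110).

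Csf1r, the receptor of Csf1 on macrophages, was 3.81 ± 0.54 FPKM in control (SD, n = 2), 4.39 ± 2.04 in SAP and 1.46 ± 0.46 in JZL184 (n = 4 each). Its log2 fold change between JZL184 and SAP was -1.42 ± 0.38 (SE, edgeR adjusted p = 0.110), and DESeq2 called it lower. Csf3r, the receptor of Csf3 on neutrophils, had 0.12 ± 0.04, 0.88 ± 0.56 and 0.45 ± 0.19 FPKM. It differed by 2.64 ± 0.75 between SAP and control (edgeR adjusted p = 0.459), where DESeq2 called it, and by -0.77 ± 0.55 between JZL184 and SAP (adjusted p = 0.417). Csf2ra had 8.84 ± 0.02, 7.28 ± 4.36 and 7.52 ± 3.57 FPKM. Csf2rb, the shared signalling chain, had 2.76 ± 0.73, 5.33 ± 2.23 and 6.86 ± 1.06 FPKM, and differed by 1.29 ± 0.29 between JZL184 and control (adjusted p = 0.0594).

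In a list of upstream cytokines that also holds the receptors Il17ra and Il17rc, 0 of 7 tested genes were called by edgeR in JZL184 against SAP, with 5 at an unadjusted p below 0.05. At that p stood 3267 of all 15308 genes. DESeq2 called Il22, Tnf, Il1a and Il23a of this list higher, with 3.57% of all genes called higher. The median log2 fold change of the 7 genes was 1.98. Tnf was 1.38, 0.88, 0.88 and 0.43 FPKM in SAP and 0.91, 5.63, 5.88 and 8.52 FPKM in JZL184, where library 1 lay within the range of SAP. Tnf differed by 2.77 ± 0.63 (SE, edgeR adjusted p = 0.0865). Il22, a cytokine of lymphocytes that acts on epithelium, differed by 4.43 ± 0.89 (adjusted p = 0.0851) and Il1a by 1.98 ± 0.46 (adjusted p = 0.0889). Il1b differed by 0.88 ± 0.50 (adjusted p = 0.319), and its means were 7.92 ± 3.70 FPKM in control (SD, n = 2), 18.6 ± 12.4 in SAP and 29.8 ± 11.0 in JZL184 (n = 4 each). Il17a was listed at 0 FPKM in all 3 control libraries and at 0.30, 0.38, 0 and 0 FPKM in the JZL184 libraries. Against control, edgeR called 2 of the 9 tested genes of this list higher in JZL184, beside 1.02% of all genes, Il1a by 3.53 ± 0.57 (adjusted p = 0.0266) and Il22 by 6.04 ± 1.22 (adjusted p = 0.0476). Both lost the call without control library 3, without JZL184 library 2 and without JZL184 library 4.

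Of 7 regulators of the messages, 0 were called by edgeR in JZL184 against SAP and 3 stood at an unadjusted p below 0.05, beside 3267 of all 15308 genes. Zc3h12a, an RNase that cleaves cytokine messages, was 14.86, 10.99, 8.17 and 9.83 FPKM in SAP and 17.98, 126.95, 99.42 and 102.5 FPKM in JZL184. The groups did not overlap, but JZL184 library 1 was far below the other 3 libraries, as it was for Tnf and the lowest for Cxcl1. Zc3h12a differed by 3.20 ± 0.56 (SE, edgeR adjusted p = 0.0693), and both DESeq2 and limma-voom called it. Nfkbiz, a nuclear cofactor of NF-kappaB, had 0.88 ± 0.44 (adjusted p = 0.271) and Zfp36, which binds AU-rich elements, 1.12 ± 0.46 (adjusted p = 0.206).

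Other CXC ligands were measured beside the members. Cxcl13, which attracts B cells, differed by 1.36 ± 0.36 between JZL184 and SAP (SE, edgeR adjusted p = 0.108) and by 1.77 ± 0.36 between JZL184 and control (adjusted p = 0.0476). It was the only one of 8 tested ligands of this list that edgeR called in that comparison, and it was not called without control library 3, JZL184 library 2 or JZL184 library 4. Cxcl10, an interferon-induced ligand, had means of 1.16 ± 0.81 FPKM in control (SD, n = 2), 1.77 ± 0.98 in SAP and 6.10 ± 8.58 in JZL184 (n = 4 each). JZL184 library 3 was at 18.94 FPKM and the others at 1.25 to 2.58, and the log2 difference of Cxcl10 between JZL184 and SAP was 1.85 with that library and 0.23 without it. Cxcl16 had the smallest p of the list in SAP against control, with 0.79 ± 0.30 (SE, adjusted p = 0.459).

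**Figure D5:**
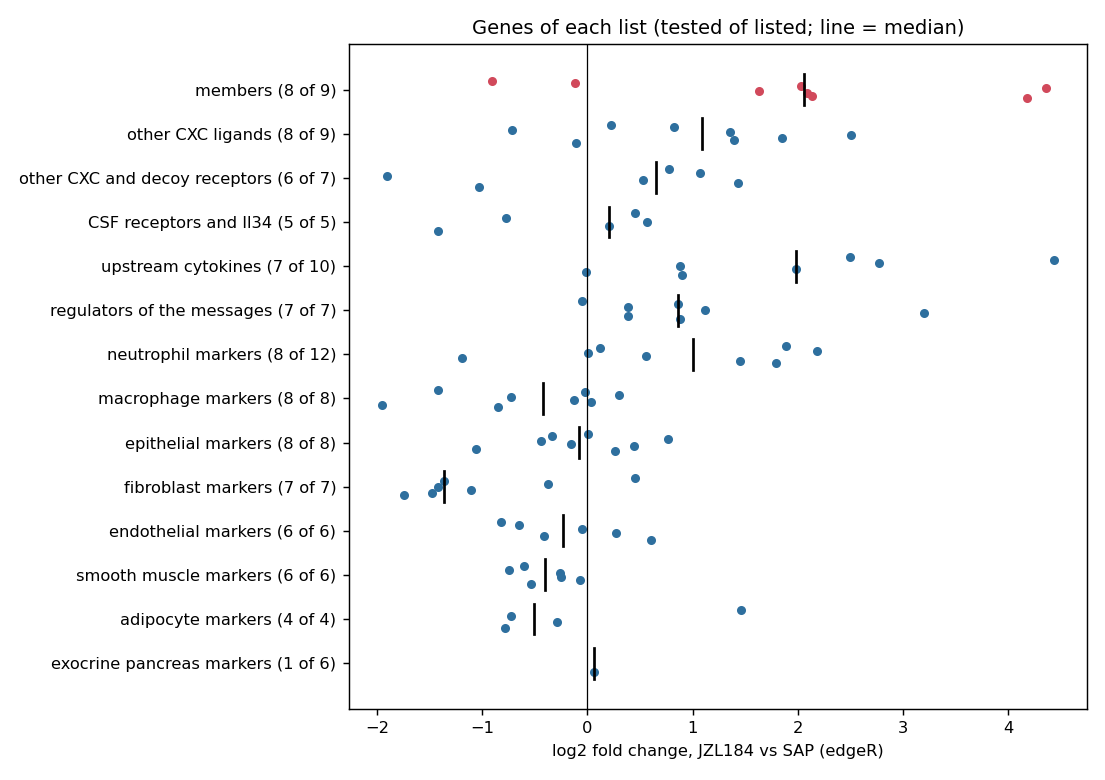
Log2 fold change between JZL184 and SAP of each tested gene (point) by list, with the median of the list as a line. The medians are 2.06 for the 8 tested genes of the report, 1.98 for the list of upstream cytokines and Il17 receptors, 1.0 for neutrophil markers and -1.36 for fibroblast markers.

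Markers of other cells differed between the groups in part. The 12 neutrophil markers summed to 3.15 to 5.39 FPKM in control, 12 to 87.7 in SAP and 21.7 to 266 in JZL184, and their part in the result was not tested. S100a8 and S100a9 made up 36.5% to 89.0% of this sum in the SAP libraries and 54.7% to 92.0% in the JZL184 libraries. By edgeR 0 of the tested markers were called in any comparison. At an unadjusted p below 0.05, in either direction, stood 6 of 8 in SAP against control, 1 of 8 in JZL184 against SAP and 5 of 9 in JZL184 against control. Over all genes these counts were 1457 of 16029, 3267 of 15308 and 4178 of 15916. The log2 fold change was positive for 7, 7 and 8 of the tested markers in these comparisons. Mpo, the peroxidase of neutrophil granules, was the negative one against control, with -1.36 ± 0.57 in SAP and -1.38 ± 0.52 in JZL184 (SE), both lower without overlap. The negative one in JZL184 against SAP was Mmp8, a neutrophil collagenase, with -1.19 ± 0.87, and both were named after their values were seen. S100a8, which neutrophils hold in large amounts together with S100a9, was 39.55, 4.96, 29.51 and 3.56 FPKM in SAP and 41.42, 148.71, 6.33 and 21.25 FPKM in JZL184. S100a9 ranged from 2.49 to 38.51 FPKM in SAP and from 5.56 to 95.6 FPKM in JZL184. SAP libraries 1 and 3 were high for S100a8, as for Cxcl2, Cxcl3 and Csf3. JZL184 library 3 had the least S100a8 and the least Cxcr2 of its group, and a Cxcl1 level of 387.94 FPKM. Of the same 12 markers, Fpr1 was at most 0.02 FPKM, Fpr2 at most 0.07 and Ltf at most 0.1 in every library. In SAP against control S100a8 differed by 5.58 ± 1.38 and S100a9 by 4.65 ± 1.26 (SE, edgeR adjusted p = 0.459 for both), and DESeq2 called both. Between JZL184 and SAP they differed by 1.79 ± 1.01 (adjusted p = 0.317) and 1.45 ± 1.0 (adjusted p = 0.403), and without JZL184 library 2 by 0.38 and 0.0012. Il1r2, a decoy receptor of Il1, had the smallest p of the list there, with 1.88 ± 0.62 (adjusted p = 0.148).

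The 8 macrophage markers summed to 346 to 400 FPKM in control, 161 to 436 in SAP and 105 to 305 in JZL184, with a median log2 fold change of -0.43 between JZL184 and SAP. Against control, edgeR called Cd163 (2.99 ± 0.55 SE, adjusted p = 0.0398) and Mrc1 (2.34 ± 0.46, adjusted p = 0.0454) higher in JZL184, beside 1.02% of all genes called higher, and both are scavenger or lectin receptors of tissue macrophages. The other way, C1qa, a complement subunit named after its value was seen, differed by -1.21 ± 0.40 and Csf1r by -1.42 ± 0.33. Both were lower without overlap, and the 8 markers had 3 positive and 5 negative values with a median of -0.24. Cd163 and Mrc1 were also higher in SAP against control, by 2.99 ± 0.63 and 2.5 ± 0.50, without overlap. There edgeR called neither and DESeq2 called both, and the 8 markers had 5 positive and 3 negative values. Between JZL184 and SAP, Cd163 differed by 0.03 ± 0.49 and Mrc1 by -0.13 ± 0.35. Markers of fibroblasts, cells that make Cxcl12 in many tissues, summed to 87.0 to 124 FPKM in control, 98.1 to 161 in SAP and 58.8 to 106 in JZL184. Their median log2 fold change was -1.36 between JZL184 and SAP, with 5 of 7 at an unadjusted p below 0.05 and 0 called by edgeR, and DESeq2 called Pdgfra, Col1a1, Col1a2, Col3a1 and Lum lower, with 3.41% of all genes called lower. Of all 15308 genes, 3267 stood at an unadjusted p below 0.05 in edgeR there. Col3a1 had -1.42 ± 0.37 (edgeR adjusted p = 0.105). Against control, Col1a1 was the 1 fibroblast marker of 7 called by edgeR, lower in JZL184 by -2.49 ± 0.50 (adjusted p = 0.0462), with 1.14% of all genes called lower. Cd163, Mrc1 and Col1a1 were not called without control library 3, JZL184 library 2 or JZL184 library 4. The part of these cells in the levels of Cxcl12 was not tested.

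Epithelial markers had a median of -0.08 between JZL184 and SAP, endothelial markers one of -0.23, smooth muscle markers one of -0.40 and adipocyte markers one of -0.51, and 0 of their genes were called by edgeR, with 1, 2, 0 and 2 genes at an unadjusted p below 0.05. Vil1 (-1.06 ± 0.35 SE, adjusted p = 0.151), Pecam1 (0.60 ± 0.24, adjusted p = 0.200) and Lep (1.46 ± 0.45, adjusted p = 0.137) had the smallest p of their lists. Of the exocrine pancreas markers only Cela1 passed the filter, and the list summed to 4.19 to 12.1 FPKM. In SAP against control, the genes with the smallest p of a list included Krt8 (-1.28 ± 0.43, adjusted p = 0.459), Pdgfra (2.03 ± 0.70), Cdh5 (0.92 ± 0.45), Actg2 (-1.24 ± 0.53), Mrc1 (2.5 ± 0.50), Zfp36l1 (1.02 ± 0.47), Il1a (1.59 ± 0.71) and Cxcr5 (-1.21 ± 0.48). Over all lists, edgeR called 0 of 79 tested genes in SAP against control (18 at an unadjusted p below 0.05) and 0 of 80 in JZL184 against SAP (27). At that p stood 1457 of all 16029 and 3267 of all 15308 genes. DESeq2 called 5 and 16 of the list genes, beside 1.23% and 6.98% of all genes, and limma-voom 0 and 13, beside 0.131% and 8.57%. In JZL184 against control edgeR called 6 of 83, beside 2.16% of all genes. DESeq2 called 30 list genes there (21 higher, 9 lower), beside 1899 of all 17587 genes tested. Calls by limma-voom numbered 33, beside 2898 of 15916. The genes with the smallest p of a list without a call by edgeR included Cxcr6 (-2.07 ± 0.50 SE, adjusted p = 0.0644), Csf2rb, Nfkbiz (2.08 ± 0.45, adjusted p = 0.0553), Il1r2 (3.46 ± 0.76, adjusted p = 0.0573), Krt8 (-1.46 ± 0.32, adjusted p = 0.0576), Tie1 (-1.21 ± 0.32, adjusted p = 0.0780) and Tagln (-1.54 ± 0.54, adjusted p = 0.127).

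Genes with a course like that of Cxcl1 were found by Pearson's r of log2 library-scaled counts over 10 samples, as a description across samples that share their groups and depth. Irak1 (r = 0.967), Il1r1 (0.966), Mt1m (0.965), LOC120103615 (0.963) and Htr7 (0.963) stood first among 16569 genes. Of the 9 genes, Csf3 (0.958, rank 14), Cxcl2 (0.950, rank 23) and Cxcl3 (0.936, rank 43) were close to Cxcl1. Cxcl6 (0.846, rank 322) and Csf2 (0.761, rank 823) were farther off, followed by Csf1 (0.391), Cxcr2 (0.344) and Cxcl12 (-0.311). The course of Cxcl12 was most like that of Clec4a3 (r = 0.977), Skida1 (0.944), Ms4a6a (0.943), Dipk2b (0.913) and Mpeg1 (0.889).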

How the data were processed

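The authors trimmed reads with FASTX-Toolkit, aligned them to mRatBN7.2 with HISAT2 and deposited the count of uniquely aligned reads per gene, not normalized. The authors also deposited FPKM values, which are scaled to gene length and library size. For the counting tool and annotation, no source used here gives a name. Treatment labels set the groups. Reads of control libraries 1 and 2 were summed and their FPKM averaged. The counts of all genes entered a pairwise fit with edgeR 4.0.16 (R 4.3.3, quasi-likelihood test, TMM, minimum count 10), with calls at p under 0.05 after Benjamini-Hochberg adjustment and a fold over 2 or under 0.5. The edgeR fits of JZL184 against SAP and of SAP against control were also run on simulated counts, there with control libraries 1 and 2 as separate samples. The fit of JZL184 against control was not simulated. Alternatives were DESeq2 1.42.0, limma-voom (limma 3.58.1), other size factors, filters, groupings of libraries, a replicate block and gene length offsets (span 0.3). Genes of the lists are named if fixed by name, if called, or if they had the smallest p of a list. The members and lists were chosen with earlier results of these data known. Likeness used log2 library-scaled counts with a prior count of 2. Depth was high enough that the spread between libraries set the precision, except for Cxcr2, Csf3, Csf2 and, in control, Cxcl2, where counts were few. Overlap between groups was judged on TMM-scaled counts. P-values measure the spread between these libraries, which may be partly technical. Sequences came from RefSeq (GRCr8), whose coordinates were not used for other results. Splicing was not analysed here. Adjusted p-values other than those named as DESeq2 or limma-voom are from edgeR. Python 3.11.15, numpy 2.4.6 and pandas 2.3.3 were used for tables.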

Additional observations from a re-analysis of the deposited data

How the results depend on the processing

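Of 479 values of log2 fold change of the members under alternatives, 460 moved by less than the spread between replicates and 19 by more, including Cxcl1, Cxcl2 and Cxcl12 against control without control library 3 and Cxcl6 and Csf1 with SAP libraries 3 and 4 alone. This spread was the pooled SD within groups on the log2 scale. It ranged from 0.248 for Cxcl12 in JZL184 against SAP to 1.69 for Cxcl2 in SAP against control, where Cxcl1 had 1.38. For genes with so wide a spread, a shift of more than 2-fold could still count as smaller, so the count of 460 is a lenient measure. Of the 479, 15 had the opposite sign. For the other genes with a fold change printed, 47 of 2326 values had the opposite sign, in 19 of 119 pairs of gene and comparison, most often for Csf1r in SAP against control (8) and for Cd163 (6), Mpo (6) and Mrc1 (5) in JZL184 against SAP. In JZL184 against SAP, Mthfd2l stood at -0.031 with SAP libraries 1 and 2 alone and Mmp8 at 0.29 with libraries 3 and 4 alone. The counts of called genes moved widely, and the causes were not tested.

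In SAP against control, with 0 genes and 0 members called, the number of genes called was 208 with DESeq2 (5 members), 21 with limma-voom, 14 without a filter, 4 with all 3 groups in 1 fit, 33 with 3 control samples, 1434 with DESeq2 and 3 control samples (6 members), 5859 with SAP libraries 1 and 2 alone (6 members) and 74 with libraries 3 and 4 alone. Leaving out 1 library gave 0 to 3 genes and 0 members.

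In JZL184 against SAP, with 0 genes and 0 members called, it was 1283 with DESeq2 (6 members), 1312 with limma-voom (6 members), 27 without a filter (1 member), 207 with all 3 groups in 1 fit (2 members), 33 with gene length offsets (1 member) 2912 with SAP libraries 1 and 2 alone (3 members) and 0 with libraries 3 and 4 alone (0 members). Leaving out 1 library gave 0 to 655 genes and 0 to 2 members, with 655 genes without JZL184 library 1.

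In JZL184 against control, with 343 genes and 5 members called, it was 1899 with DESeq2, 2898 with limma-voom, 929 without a filter, 2800 with 3 control samples and 3482 with DESeq2 and 3 control samples. With at least 10 reads in every library 3 of the 6 members tested and 328 of 13542 genes were called. Leaving out 1 library gave 1 to 1867 genes and 0 to 5 members. With control library 3 as the only control sample, an alternative chosen after seeing the data, 0 genes and 0 members were called.

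The replicate numbers of the labels did not pair the samples, since same-numbered libraries had correlations of their deviations of -0.44 to 0.12. With the replicate block and 3 control samples 1 gene was called in SAP against control and 1488 in JZL184 against control, and with the block and gene length offsets 7 and 1176, and 0 were called with either in JZL184 against SAP. In no comparison did a library correlate best with its own number.

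With n = 2 in the control group, folds against control rest on few samples. The lone sample left by dropping control library 3 is assumed to vary like the other group. Cxcr2, Csf3, Csf2 and, in control, Cxcl2 had too few reads in some groups to show small differences, and FPKM with 2 decimals is coarse for them.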
